A study of Mus musculus with 33 samples.

Results

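The comparison described here is the effect of CHIR on day 10 of retinoic acid treatment, read from 6 of the 33 RNA sequencing libraries of a mouse cell study with 11 groups of 3. Embryonic stem (ES) cells of strain 129S2/SvPas were plated on gelatin and given serum medium with 10 µM all-trans retinoic acid for 10 days (group RA-10d, labelled ES-derived SMC-like cells). The other arm received the same 10 µM retinoic acid plus 5 µM CHIR over the same 10 days (group RA/CHIR-10d, labelled ES-derived XEN-like cells). Both arms therefore carried retinoic acid, and they differed by the added compound. Day 10 was the last day with inducers. Samples of days 4 and 7, samples taken 6 days after withdrawal (day 16), undifferentiated ES cells (mES) and the reference lines XEN and SMC are used as context. The ES cells had been kept on mitomycin-inactivated mouse embryonic fibroblasts with leukaemia inhibitory factor. The labels do not say whether the 3 libraries of a group came from separate cultures, so p-values measure the spread between these libraries, which may be technical.

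CHIR (CHIR99021) inhibits glycogen synthase kinase 3, the kinase that marks beta-catenin for destruction, so it turns on the intracellular arm of Wnt signalling without a Wnt ligand. Retinoic acid binds the retinoic acid receptors and drives ES cells out of pluripotency. Extraembryonic endoderm (XEN) cells correspond to the primitive endoderm of the blastocyst, which lays down laminin and type IV collagen and depends on Gata and Sox transcription factors. Smooth muscle in the embryo arises in part from mesothelium, an epithelium marked by Wt1 and uroplakins that can give rise to contractile mesenchyme.

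A gene was tested when its FPKM (fragments scaled to transcript length and library size) was at least 1 in at least 3 of the 6 libraries, which left 13511 of 52631 genes. A gene under 1 FPKM in every library of one arm passed only because every library of the other reached 1. The direction of such a gene follows from the filter and is no result by itself. Below this holds for Wt1, Upk3b, Upk1b, Muc16, Kdr, Fgf5 and Nppa, which were lower with CHIR. It also holds for Esrrb, Tcl1, Sox7, Wif1, Sostdc1 and Chac1, which were higher, and for further genes not listed here. Counts of called list members include such genes. Differences are on the log2(FPKM + 1) scale, RA/CHIR-10d minus RA-10d, so the change of weakly expressed genes is understated. A gene was called when its limma adjusted p was under 0.05 and its difference was at least 1 in size. Values written with ± are means and SDs of 3 libraries. Libraries correlated across genes at 0.986 to 0.989 within an arm and at 0.878 to 0.881 between arms, and 12876 to 13283 genes reached 1 FPKM in each. RA/CHIR-10d replicate 1 stood apart in summed FPKM (783087), with mt-Ts1 highest at 95400 FPKM. The others summed to 643779 to 691234 FPKM, with mt-Atp8 highest in each. For 11 genes, none protein coding, 1 library of a group read 0 while another reached 20 FPKM or more. The steps between low values gave depths of 0.942 to 1.17 relative to the first RA-10d library, while the number of fragments behind each value is unknown.

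CHIR changed 2485 of the 13511 genes, or 18.4%. Of these, 1020 were higher with CHIR (7.55% of the genes tested) and 1465 were lower (10.8%). The median difference over all genes tested was 0.01, with quartiles of -0.42 and 0.39. The libraries of the arms did not overlap for 69.3% of genes, so non-overlap by itself is the usual state of a gene here. As in any bulk measurement, fewer cells of a type and less RNA per cell cannot be told apart.

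**Figure D1:**
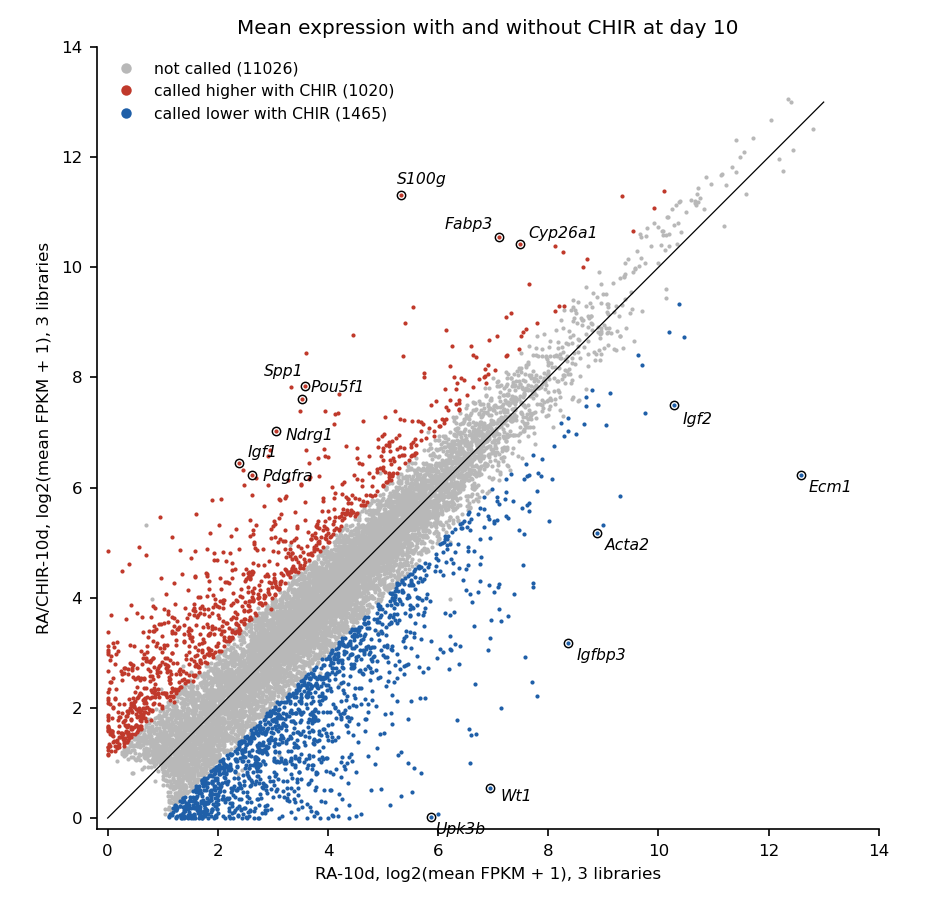
Each point is a gene, with the mean of 3 RA-10d libraries on the x axis and of 3 RA/CHIR-10d libraries on the y axis, both as log2(FPKM + 1). Red points are the 1020 genes called higher with CHIR and blue points the 1465 called lower; S100g and Ecm1 lie far from the diagonal on opposite sides.

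Markers of the labelled cell types were read first. The summed level of 10 primitive endoderm markers was 500 to 533 FPKM in the RA-10d libraries and 2120 to 2200 FPKM in the RA/CHIR-10d libraries. That sum was carried by Col4a1, Lama1, Sox17 and Gata4, while Gata6 and Dab2 were lower with CHIR. The 9 smooth muscle markers summed to 1260 to 1270 FPKM without CHIR and 113 to 122 FPKM with it. Myocd, a defining smooth muscle coactivator, reached at most 0.402 FPKM in any of the 6 libraries, and Myh11, the mature smooth muscle myosin, was at 2.93 ± 0.174 FPKM in RA-10d. The SMC line held 15.6 FPKM of Myh11 and the XEN line 246 FPKM of Gata4. Markers of mesothelium summed to 202 to 212 FPKM in RA-10d against 1.87 to 2.54 FPKM in RA/CHIR-10d, so the arm labelled SMC-like also carried a mesothelial signature. Markers of ES cells summed to 16.3 to 18.9 FPKM without CHIR and 229 to 239 FPKM with it, although Nanog was under 1 FPKM in every library of both arms against 377 FPKM in mES. Most of the sum with CHIR was Pou5f1, at 190 to 198 FPKM. Esrrb and Zfp42 were also higher with CHIR, while Sox2 overlapped between the arms. Fibroblast markers, which feeder cells also express, summed to 197 to 208 FPKM without CHIR and 15.8 to 18.8 FPKM with it, and their part in the results was not tested. Of the blood markers Ptprc, Gata1 and Hba-x were at 0 in all 6 libraries, as was Tpbpa of the trophoblast.

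The gene that CHIR raised most was S100g, which encodes the calcium-binding protein calbindin-D9k. It lies at chrX:162961992-162964599 (GRCm38). Its FPKM was 47.0, 32.9 and 37.2 in the RA-10d libraries and 2588, 2497 and 2574 in the RA/CHIR-10d libraries, a difference of 6.01 (SE 0.14, adjusted p = 1.75e-22). S100g also had the largest gain in FPKM of all called genes. Igf1, insulin-like growth factor 1, went from 5.18, 4.23 and 3.28 FPKM to 84.2, 83.2 and 89.9 FPKM. Ndrg1, a gene known to respond to hypoxia and differentiation, went from 10.1, 6.66 and 5.10 FPKM to 129, 128 and 129 FPKM. S100g, Igf1 and Ndrg1 were ranked among genes whose libraries did not overlap between the arms, so that separation was set by the choice.

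Hopx, a homeodomain-only factor of cardiac and stem cells, was at 6.67 ± 0.940 and 102 ± 3.37 FPKM (difference 3.76). Myl3, a ventricular myosin light chain, was at 1.25 ± 0.475 and 33.3 ± 2.77 FPKM (3.95), and Smpx, a small muscle protein, at 0.621 ± 0.260 and 26.6 ± 1.40 FPKM (4.10). S100a1, another calcium-binding protein, reached 622 ± 10.1 FPKM from 45.9 ± 2.98 FPKM (3.73). These genes were taken from the largest rises, while of the 8 cardiac muscle genes tested 5 fell and Myl3 was the 1 that rose (median -1.18). Among vessel-associated genes, Esam, an endothelial adhesion molecule, rose by 3.99, and Ramp2, the partner of the calcitonin receptor-like receptor, rose by 3.66. Their rise did not extend to the defining endothelial markers: Cdh5 reached at most 0.58 FPKM and Pecam1 at most 0.342 FPKM in any of the 6 libraries. Spp1, or osteopontin, was at 11.7, 12.1 and 9.18 FPKM without CHIR and 225, 225 and 233 FPKM with it. Other genes among the 25 with the largest rises were Npl, an enzyme of sialic acid breakdown (10.3 ± 0.707 and 166 ± 9.15 FPKM), and Spock1, a testican proteoglycan (4.50 ± 1.28 and 78.5 ± 8.37 FPKM).

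The gene that CHIR lowered most was Wt1, the Wilms tumour transcription factor of mesothelium, at chr2:105126529-105173616, which was at 115, 124 and 126 FPKM without CHIR and 0.309, 0.622 and 0.427 FPKM with it (difference -6.40, SE 0.09, adjusted p = 1.42e-27). Ecm1, a secreted matrix protein, was at 6233, 6052 and 6119 FPKM without CHIR and 67.3, 72.0 and 81.7 FPKM with it (-6.37). Wt1 and Ecm1 were likewise ranked among genes whose libraries did not overlap, so that separation was set by the choice. Tmem255a, a membrane protein, fell from 63.1 ± 2.91 to 0.055 ± 0.0214 FPKM. Agtr2, the type 2 angiotensin receptor, fell from 21.7 ± 2.07 to 0.0266 ± 0.0231 FPKM, and Ecel1, an endopeptidase, from 23.3 ± 0.187 to 0.0504 ± 0.0503 FPKM. Alcam, an adhesion molecule of activated leukocytes and mesothelium, fell by 4.59, and Myrf, a membrane-bound transcription factor, fell by 4.46. Il33, an alarmin cytokine, was at 39.0, 37.5 and 36.9 FPKM without CHIR and 1.56, 0.818 and 1.25 FPKM with it. Ece1, endothelin converting enzyme, was also called (-4.40, SE 1.39, adjusted p = 7.48e-03), but its RA-10d libraries spread from 14.1 over 113 to 538 FPKM, so the size of its fall is poorly fixed, and without RA-10d replicate 1 it was no longer called.

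In absolute level, S100g was followed by lysosomal, matrix and fatty acid binding products among the genes with the largest gains in FPKM. Ctsl, the lysosomal protease cathepsin L, went from 646 ± 32.1 to 2506 ± 11.4 FPKM, and Cst3, the cathepsin inhibitor cystatin C, from 309 ± 5.21 to 1235 ± 14.5 FPKM. Sparc, a matrix protein of parietal endoderm, went from 1100 ± 7.53 to 2675 ± 38.0 FPKM. Fabp3, a fatty acid binding protein, went from 136 ± 12 to 1495 ± 16.7 FPKM. Fth1, the ferritin heavy chain, and Cd63, a lysosomal tetraspanin, also gained (differences of 1.12 and 1.44). The largest losses after Ecm1 were those of Igf2 (1249 ± 20.9 to 180 ± 10.5 FPKM), Clu, the chaperone clusterin (1407 ± 40.8 to 423 ± 12.1 FPKM), Tmsb4x, the actin-binding thymosin beta 4 (1175 ± 36.3 to 452 ± 10.8 FPKM), and H19 (865 ± 8.52 to 163 ± 1.21 FPKM). Lgals1 (galectin 1) and Dlk1 (an imprinted Notch ligand-like protein) were also among the 10 largest losses, with differences of -1.03 and -3.67, although Lgals1 (-0.9956) was no longer called without RA-10d replicate 3.

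Gene lists were read next, by counts of called members among those tested. Each count is to be read beside the shares over all genes tested, 7.55% higher and 10.8% lower. The members and lists were chosen with earlier results of these data known, so the counts are a description. The Wnt pathway was read by the role of its members, from ligand to target. Of 10 Wnt ligands tested, 1 rose and 4 fell with CHIR (median difference -0.81, against 0.01 over all genes). Wnt4 was at 40.6, 44.2 and 44.1 FPKM without CHIR and 2.39, 2.21 and 2.90 FPKM with it (-3.65, SE 0.08, adjusted p = 6.43e-23). Wnt2b and Wnt9a fell (differences of -2.69 and -2.38), while Wnt2 was the ligand that rose, from 0.378 ± 0.103 to 5.82 ± 0.125 FPKM. So the ligands without CHIR were mainly Wnt4, Wnt9a, Wnt6 and Wnt2b. Wnt6 was at 26.2 ± 1.72 FPKM without CHIR and 29.97 ± 3.01 FPKM with it (adjusted p = 0.504).

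Receptors and their R-spondin agonists leaned the same way: 2 of 18 rose and 7 fell (median -0.49). Rspo1, a secreted agonist of the LGR receptors, fell from 11.8 ± 1.66 to 0.0904 ± 0.112 FPKM, and Rspo3 from 6.66 ± 0.186 to 2.74 ± 0.257 FPKM, a call that Rspo3 (-0.9799) lost without RA/CHIR-10d replicate 2. Fzd1, Fzd2, Fzd4 and Fzd7 fell, as did the noncanonical receptor Ror1, and Fzd5 and Fzd10 rose (Fzd10 from 1.20 ± 0.327 to 5.39 ± 0.0952 FPKM). Secreted antagonists split. Of 11 tested, 5 rose and 2 fell (median 0.55). Wif1, which binds Wnts outside the cell, went from 0.700, 0.388 and 0.363 FPKM to 28.8, 27.9 and 31.7 FPKM. Notum, the enzyme that removes the Wnt lipid, went from 14.3 ± 0.651 to 103 ± 3.04 FPKM, and Dkk1, an antagonist of the LRP coreceptors, from 0.901 ± 0.303 to 10.5 ± 0.756 FPKM. Sostdc1 was listed at 0 in all RA-10d libraries and at 3.11, 3.58 and 3.53 FPKM with CHIR. In the other direction Sfrp1, a frizzled-related decoy, fell from 102 ± 1.13 to 1.86 ± 0.290 FPKM, and Sfrp5 fell by 2.44. Sfrp4, of the same family as both that fell, was the remaining antagonist that rose, from 0.126 ± 0.0877 to 1.69 ± 0.488 FPKM.

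CHIR acts on the destruction complex of beta-catenin. Of 20 genes of this complex and core transducers, none rose and 4 fell, against 10.8% lower over all genes (median -0.23), namely Pygo1, Tcf7l1, Bcl9l and Apc2. That count was 2 without RA-10d replicate 1, without RA/CHIR-10d replicate 1 or without RA/CHIR-10d replicate 2, since most of these genes lie close to the size needed for a call. Gsk3b itself was at 11.5 ± 0.235 and 10.3 ± 0.719 FPKM (adjusted p = 0.150), and beta-catenin (Ctnnb1) at 629 ± 5.97 and 430 ± 7.24 FPKM, a difference of -0.55 that did not reach the size needed for a call. Tcf7l1, a repressor of Wnt targets in ES cells, fell from 14.7 ± 2.01 to 6.39 ± 0.341 FPKM.

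Of 20 intracellular feedback and target genes, 11 rose and 2 fell (median 1.18). Axin2, the scaffold whose transcription reports the pathway, was at 16.9, 19.8 and 18.1 FPKM without CHIR and 49.6, 47.8 and 46.5 FPKM with it (1.35, SE 0.14, adjusted p = 2.94e-09). Nkd1, a feedback inhibitor, rose from 40.8 ± 2.82 to 105 ± 3.05 FPKM, and Apcdd1, a membrane-bound inhibitor, from 7.66 ± 1.12 to 42.6 ± 1.68 FPKM. The caudal genes Cdx2 and Cdx1 rose as well, Cdx2 from 0.143 ± 0.139 to 7.16 ± 0.607 FPKM, as did Tcf7 and the hyaluronan receptor Cd44. Lef1, at 4.32, 2.40 and 3.56 FPKM against 3.49, 6.02 and 6.63 FPKM, overlapped between the arms. Ccnd1 and Myc, the targets best known from the intestine, were lower with CHIR: Ccnd1 at 38.3 ± 1.69 and 11.1 ± 1.06 FPKM and Myc at 13.04 ± 2.70 and 2.79 ± 0.202 FPKM.

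Sp5, a zinc finger gene that beta-catenin complexes are known to bind directly, is shown with the 250 bases before its start at chr2:70474673-70474922 (plus strand, RefSeq, GRCm38.p6), because it holds a copy of CTTTGAT, the core recognised by TCF/LEF factors, in capitals.
Sp5: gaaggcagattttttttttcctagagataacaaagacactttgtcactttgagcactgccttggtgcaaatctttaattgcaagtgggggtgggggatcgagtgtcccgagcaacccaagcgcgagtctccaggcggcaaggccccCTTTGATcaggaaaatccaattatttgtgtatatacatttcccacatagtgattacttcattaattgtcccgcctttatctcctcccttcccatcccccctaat
Sp5 was at 13.7, 11.3 and 12.4 FPKM without CHIR and 30.2, 27.1 and 26.1 FPKM with it. CTTTGAT was searched on both strands, and 3.21% of 32851 promoter windows of this length held it. Among the intracellular Wnt genes 2 of 15 with a window held it, Sp5 and Tnfrsf19. A match of letters is a description and not a binding site.

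**Figure D2:**
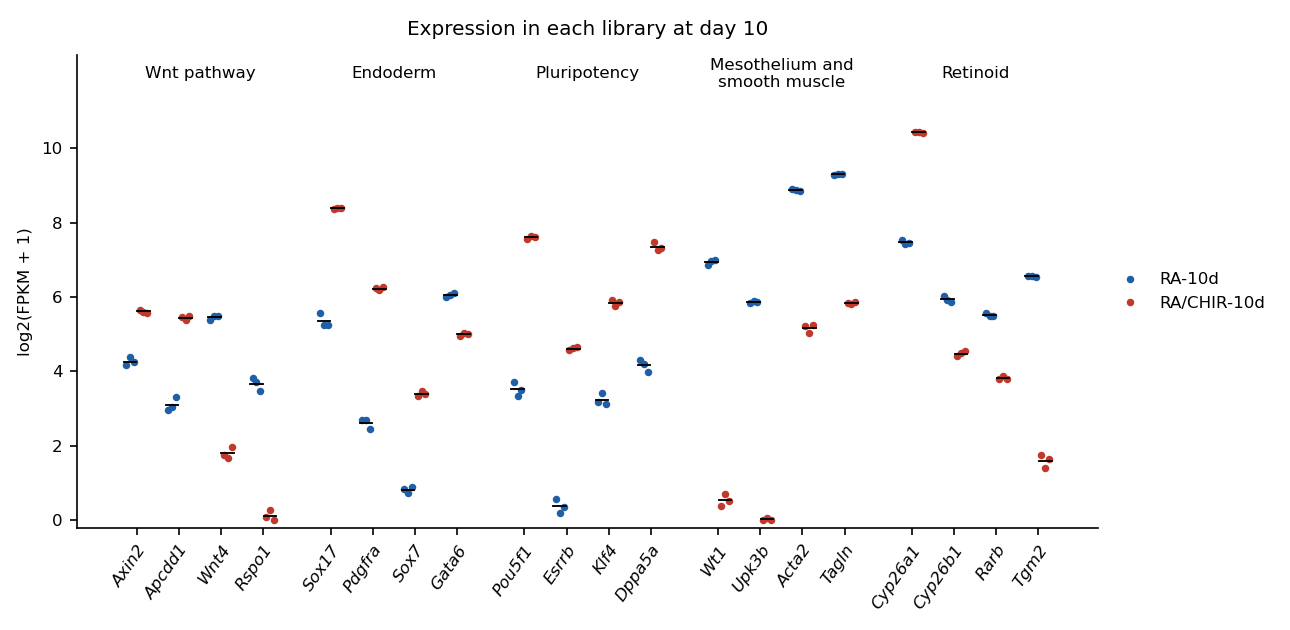
Each dot is a library, as log2(FPKM + 1), for genes of 5 roles on the x axis; blue is RA-10d, red is RA/CHIR-10d, and the bar is the mean of 3. The genes were chosen from those the text describes. Their arms do not overlap, as for 69.3% of all genes tested. Pou5f1 was higher and Wt1 lower with CHIR by several log2 units, and Gata6 was lower although the other endoderm genes shown were higher.

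Transcription factors of the primitive endoderm rose with CHIR in 13 of 20 cases, and 1 fell (median 1.72). Sox17 was at 47.0, 37.3 and 36.8 FPKM without CHIR and 332, 333 and 336 FPKM with it (3.03, SE 0.14, adjusted p = 4.32e-16). Its relative Sox7 rose from 0.766 ± 0.0995 to 9.59 ± 0.484 FPKM and Gata4 from 40.9 ± 1.17 to 149 ± 6.13 FPKM. Pitx1, a homeobox factor of hindlimb and pituitary, was at 8.99 ± 1.77 and 226 ± 10.6 FPKM, and the transcriptional coactivator Cited1 at 11.2 ± 0.985 and 348 ± 14.1 FPKM. Pitx1 and Cited1 were also among the genes with the largest rises of this same comparison. The list was chosen with earlier results of these data known. Its count, which includes them, is thus a description and no separate evidence for primitive endoderm. The factor that fell was Gata6, which acts at the top of this network in the blastocyst: it was at 63.6, 65.6 and 68.6 FPKM without CHIR and 29.98, 31.8 and 31.1 FPKM with it (-1.07, SE 0.08). Foxa1 was at 7.02 ± 0.236 and 6.85 ± 0.603 FPKM (adjusted p = 0.788), whereas Foxa2 rose from 16.1 ± 0.571 to 34.6 ± 1.72 FPKM.

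Surface and endocytic genes of endoderm rose in 17 of 22 cases, and 2 fell (median 1.55). Pdgfra, the receptor used to sort primitive endoderm, was at 5.53, 5.46 and 4.47 FPKM without CHIR and 74.5, 71.7 and 76.1 FPKM with it (3.61, SE 0.09). Aqp8, a water channel, went from 20.9 ± 2.42 to 436 ± 13.6 FPKM, Tspan8 from 36.1 ± 2.96 to 168 ± 1.28 FPKM, and the epithelial adhesion molecule Epcam from 22.5 ± 1.22 to 85.8 ± 1.34 FPKM. Habp2, a serine protease that binds hyaluronan, and Tdh, the threonine dehydrogenase of ES cells, rose by 3.32 and 3.22. The 2 that fell were Clu and Dab2, the latter an endocytic adaptor of visceral endoderm (46.9 ± 1.48 to 22.0 ± 0.660 FPKM).

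Basement membrane genes divided by chain. Of 21 tested, 6 rose and 5 fell (median 0.39). The chains of laminin-111 and the major type IV collagen rose together: Lama1 from 17.6, 16.4 and 15.4 FPKM to 158, 156 and 166 FPKM (3.21, SE 0.05, adjusted p = 1.86e-25), Lamb1 by 1.70, Lamc1 by 1.05, Col4a1 by 2.26 and Col4a2 by 2.06. Lama5, the alpha chain of laminins in mature epithelia, fell from 112 ± 7.09 to 37.8 ± 4.23 FPKM, and Col4a5 fell from 16.4 ± 0.570 to 3.07 ± 0.269 FPKM. Col18a1, the source of endostatin, fell from 186 ± 2.03 to 23.1 ± 1.32 FPKM, and fibronectin (Fn1) from 105 ± 2.53 to 45.1 ± 2.04 FPKM. Of 16 parietal endoderm genes, 5 rose and 2 fell (median -0.18): Srgn, a proteoglycan core protein, rose from 70.0 ± 2.70 to 465 ± 13 FPKM, and the plasminogen activator Plat and keratin Krt7 fell. Serum proteins of visceral endoderm gave 4 higher and 3 lower of 12 (median 0.39). Ihh, the hedgehog ligand of visceral endoderm, went from 8.70 ± 0.456 to 69.0 ± 2.57 FPKM, and Apoe and Rbp4 rose, while Apoa1 fell from 9.53 ± 0.872 to 0.949 ± 0.249 FPKM and Ttr from 7.87 ± 0.578 to 2.15 ± 0.637 FPKM.

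Of 36 pluripotency genes of the core and naive network in the deposited table, 24 passed the filter. CHIR raised 18 of these 24 and lowered none (median 2.08). Pou5f1, or Oct4, was at 12.1, 9.22 and 10.3 FPKM without CHIR and 190, 198 and 197 FPKM with it (4.09, SE 0.29, adjusted p = 1.94e-12). Esrrb, a nuclear receptor of naive cells and a known target of GSK3 inhibition, went from 0.310 ± 0.169 to 23.5 ± 0.821 FPKM, Klf4 from 8.49 ± 1.08 to 56.9 ± 3.25 FPKM, and Dppa5a from 17.1 ± 2.14 to 163 ± 12.4 FPKM. Zfp42, or Rex1, went from 3.82 ± 0.374 to 14.02 ± 0.600 FPKM. Tcl1 was listed at 0 in all RA-10d libraries and at 2.81, 5.26 and 3.62 FPKM with CHIR, so it passed the filter only through the RA/CHIR arm. The same holds for Esrrb, which was under 1 FPKM in every RA-10d library. Members of this kind could only be higher, so the count of the list is a description. Sox2 was at 2.33 ± 0.223 and 2.39 ± 0.577 FPKM (adjusted p = 0.934), against 223 FPKM in mES. Levels with CHIR therefore stayed well under those of ES cells, where Pou5f1 was at 1326 FPKM and Esrrb at 214 FPKM. Some members of this list are shared with other tissues, as Klf4, Klf5 and Kit are expressed in many epithelia. Genes of the formative and primed state did not follow: 3 of 14 rose and 4 fell, with Fgf5 going from 3.67 ± 0.545 FPKM to 0 in every library and the methyltransferase Dnmt3a from 24.1 ± 1.45 to 7.10 ± 0.521 FPKM. Germ cell genes gave 7 higher and none lower of 14 (1 lower without RA-10d replicate 2, RA-10d replicate 3 or RA/CHIR-10d replicate 3), among them the X-linked homeobox gene Rhox5 (52.4 ± 5.17 to 271 ± 13.4 FPKM) and Taf7l, a testis transcription factor subunit (3.25 ± 0.602 to 13.01 ± 1.74 FPKM).

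Contractile genes of smooth muscle fell in 19 of 24 cases, and none rose (median -1.65). Acta2, the alpha actin of smooth muscle, was at 482, 469 and 457 FPKM without CHIR and 36.0, 31.9 and 37.0 FPKM with it (-3.71, SE 0.16, adjusted p = 8.25e-17). Tagln, an actin-binding protein, was at 632 ± 10.2 and 56.6 ± 0.905 FPKM, Actg2 at 94.7 ± 2.24 and 1.002 ± 0.277 FPKM, and Cnn1, or calponin, at 21.7 ± 2.82 and 3.09 ± 0.522 FPKM. Acta2 and Actg2 are near-identical in coding sequence, and how the counting divided shared reads is not given. Smtn, or smoothelin, differed by only -0.36. The SMC line held far more of these messages than the RA-10d cells, with Acta2 at 11435 FPKM. Among 23 regulators of smooth muscle, 1 rose and 9 fell (median -0.90). Hand2 fell from 20.5 ± 0.955 to 1.23 ± 0.451 FPKM, Tgfb3 from 74.3 ± 2.18 to 7.28 ± 0.909 FPKM and Foxf1 from 13.6 ± 1.03 to 1.02 ± 0.188 FPKM. Its relative Foxf2 was the regulator that rose, from 1.97 ± 0.266 to 12.98 ± 1.34 FPKM. Srf, the factor that binds contractile promoters, was at 10.6 ± 0.899 and 9.78 ± 0.656 FPKM (adjusted p = 0.411).

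Mesothelial and epicardial genes had 18 of 22 members lowered by CHIR and 1 raised (median -2.57). Members under 1 FPKM in every RA/CHIR-10d library, among them Wt1, Upk3b, Upk1b, Lrrn4, Bnc1 and Muc16, could only be lower under the filter. After Wt1 and Ecm1 came Upk3b, a uroplakin of mesothelium, at 56.8, 58.3 and 57.4 FPKM without CHIR and 0, 0.0447 and 0 FPKM with it (-5.85, SE 0.11). Upk1b, Lrrn4 and Bnc1 were at means of 17.2, 16.1 and 12.3 FPKM without CHIR and 0.0288, 0.0266 and 0.0258 FPKM with it. Muc16, the mesothelial mucin, was at 5.61 ± 0.354 FPKM without CHIR and at 0 in every library with it. Nr2f1 (COUP-TFI) fell from 44.9 ± 3.97 to 0.388 ± 0.356 FPKM. Krt19, a keratin that mesothelium shares with other epithelia, was at 346 ± 13.6 and 194 ± 3.42 FPKM and was not called. The member that rose was Lrp2, or megalin, which endoderm also expresses. Among the cardiac muscle genes that fell, Nppa, atrial natriuretic peptide, went from 12, 12.8 and 9.09 FPKM to 0 in every library.

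Interstitial matrix fell with the mesothelial genes. Fibrillar and other collagens fell in 12 of 19 cases and 1 rose (median -2.01). Col3a1 was at 96.6, 97.0 and 107 FPKM without CHIR and 4.59, 5.20 and 3.43 FPKM with it (-4.24). Col1a1 and Col6a1 fell (differences of -2.62 and -3.48), and Col8a1 was the collagen that rose (0.935 ± 0.235 to 7.52 ± 0.765 FPKM). Elastic fibre, proteoglycan and matricellular genes gave 17 lower and 4 higher of 34 (median -1.04). Mfap2, a microfibril protein, fell from 50.5 ± 2.48 to 0.757 ± 0.101 FPKM, Dcn, or decorin, from 53.1 ± 0.702 to 3.53 ± 0.281 FPKM, and Vcan, or versican, from 12.8 ± 1.16 to 0.749 ± 0.285 FPKM. Against that direction, Spp1 and fibulin 1 (Fbln1, 51.9 ± 1.83 to 142 ± 5.80 FPKM) rose. Matrix proteases and inhibitors gave 12 lower and 2 higher of 23 (median -1.08), or 1 higher without RA-10d replicate 3 or RA/CHIR-10d replicate 3: gelatinase Mmp2 fell from 209 ± 5.66 to 18.3 ± 1.76 FPKM and its inhibitor Timp2 from 46.3 ± 0.808 to 8.72 ± 0.677 FPKM, while Timp1 rose from 82.6 ± 4.82 to 186 ± 4.65 FPKM. The fibroblast markers given above include Col3a1, Col1a1 and Dcn of these same lists, so their fall is not a separate result.

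Of 31 junction and keratin genes, 7 rose and 3 fell (median 0.40). Spint2, a protease inhibitor of epithelia, rose from 193 ± 12.4 to 472 ± 22.4 FPKM, and the junctional molecule F11r fell from 210 ± 6.03 to 95.4 ± 5.55 FPKM. Cdh1, or E-cadherin, was at 34.9 ± 0.523 and 50.7 ± 1.28 FPKM, a difference of 0.53 that was not called. Of 17 cadherins and mesenchymal transition genes, 2 rose and 6 fell: Zeb1 fell from 8.49 ± 0.325 to 1.63 ± 0.0402 FPKM, and Snai1 rose from 14.9 ± 1.55 to 37.2 ± 1.74 FPKM, so these transcription factors of the same transition moved apart. Integrins gave 2 lower and none higher of 11, against 10.8% lower over all genes tested, a count too small to be read for the list. Itga3, a laminin receptor subunit, fell from 69.0 ± 2.02 to 12.2 ± 0.790 FPKM.

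**Figure D3:**
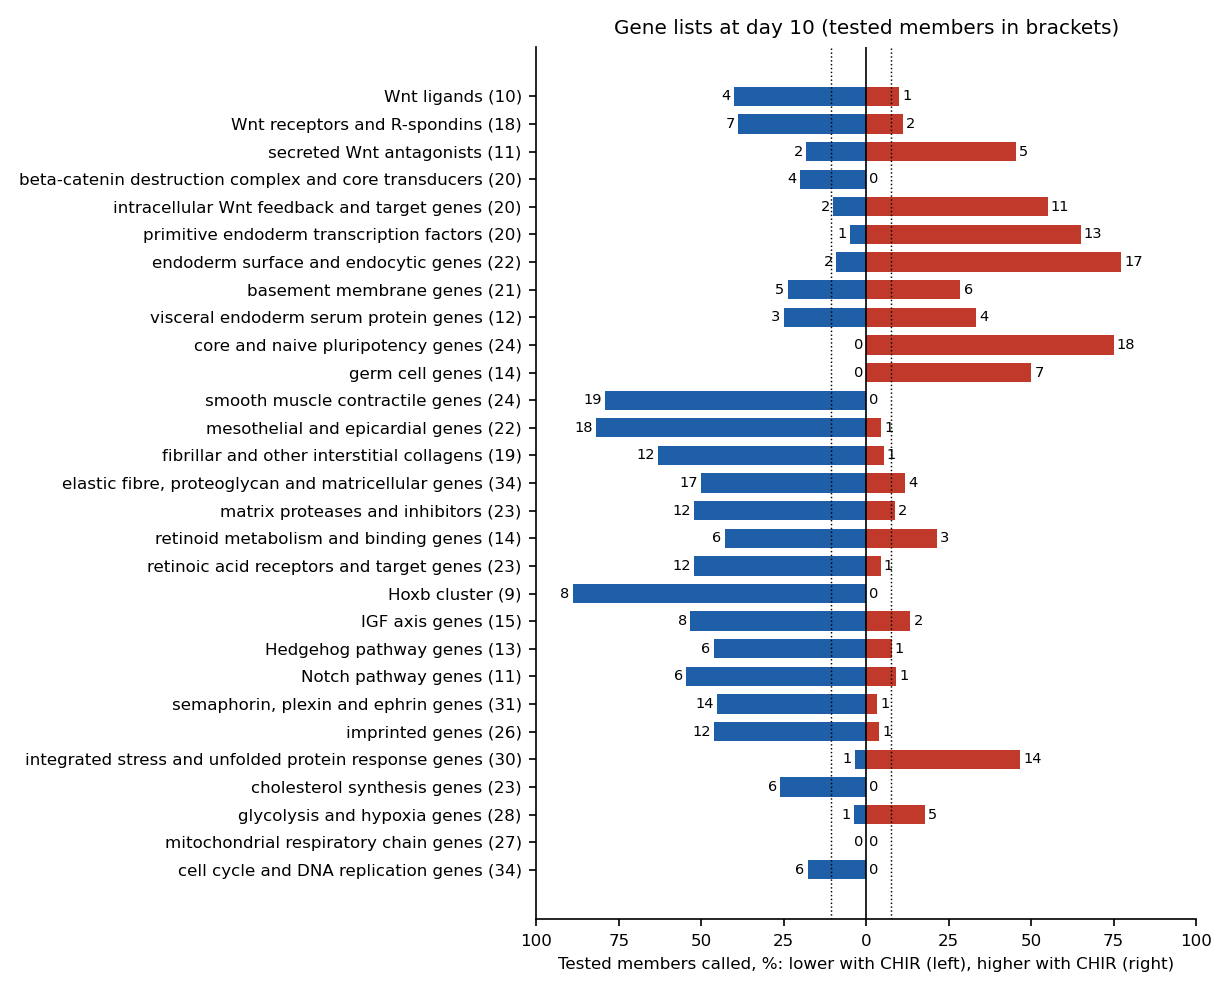
Bars give the percentage of tested members of each gene list called higher (red, right) or lower (blue, left) with CHIR at day 10, with the count at the bar's end and the tested members in brackets. Dotted lines mark the share over all genes tested, 7.55% higher and 10.8% lower. Smooth muscle, mesothelial and Hoxb lists extend left and pluripotency and endoderm lists right, while the respiratory chain has no bar. The lists were chosen with earlier results of these data known.

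Retinoid genes were read because both arms received the same dose. Of 14 genes of retinoid metabolism and binding, 3 rose and 6 fell (median -0.75). Cyp26a1, the enzyme that degrades retinoic acid, was at 185, 172 and 175 FPKM without CHIR and 1398, 1376 and 1353 FPKM with it (2.95, SE 0.12, adjusted p = 1.62e-17). Its neighbour Cyp26c1 rose from 0.788 ± 0.347 to 9.48 ± 0.614 FPKM, but the related Cyp26b1 fell from 60.4 ± 3.27 to 21.3 ± 1.04 FPKM. The synthesising enzymes Aldh1a1 and Aldh1a2 fell (differences of -2.36 and -2.48), as did the binding protein Crabp2 (-2.12). Among 23 receptors and target genes, 1 rose and 12 fell (median -1.08). All 3 retinoic acid receptor genes were lower with CHIR, Rarb at 46.5, 44.2 and 44.2 FPKM against 12.9, 13.7 and 13 FPKM, with differences of -1.22 for Rara and -1.17 for Rarg. Tgm2, a transglutaminase induced by retinoids, fell from 93.2 ± 0.421 to 2.05 ± 0.365 FPKM, and the homeobox cofactor Meis2 fell by 3.18. Gbx2 was the member that rose (0.993 ± 0.279 to 6.15 ± 0.422 FPKM).

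Cyp26a1 and Rarb moved in opposite directions although the promoters of both hold a direct repeat of the receptor binding hexamer with 5 bases between (DR5), the classical retinoic acid response element. The 250 bases before each start are shown, with the DR5 in capitals, for chr19:37697558-37697807 (Cyp26a1, plus strand) and chr14:16575477-16575726 (Rarb, minus strand).
Cyp26a1: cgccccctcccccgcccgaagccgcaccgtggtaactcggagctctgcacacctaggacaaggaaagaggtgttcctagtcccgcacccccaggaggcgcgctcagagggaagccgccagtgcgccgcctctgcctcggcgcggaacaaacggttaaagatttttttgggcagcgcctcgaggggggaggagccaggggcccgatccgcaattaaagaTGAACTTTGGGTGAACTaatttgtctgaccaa
Rarb: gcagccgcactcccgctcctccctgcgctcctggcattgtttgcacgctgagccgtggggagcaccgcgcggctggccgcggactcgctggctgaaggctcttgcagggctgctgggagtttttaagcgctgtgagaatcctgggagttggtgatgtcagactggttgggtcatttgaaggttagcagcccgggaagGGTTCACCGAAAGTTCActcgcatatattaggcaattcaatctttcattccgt
The repeat ends 16 bases before the start of Cyp26a1, on the opposite strand, and 37 bases before that of Rarb. Such a DR5 was found in 29 of 32851 promoter windows (0.0883%), searched on both strands. Tested genes holding it numbered 5: Cyp26a1 and Blvrb, a biliverdin reductase, were called higher, and Rarb, Syndig1 and Tnfsf13b were called lower. The presence of the repeat thus did not go with one direction.

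Hox genes, a textbook target of retinoic acid, were lower in the front part of the clusters. Of 31 Hox genes tested, 2 rose and 18 fell (median -1.23). Among those numbered 1 to 5, 12 of 14 fell and none rose (median -2.06). Among those numbered 6 to 9, 5 of 11 fell and 1 rose, and among those numbered 10 to 13, 1 of 6 fell and 1 rose (median 0.17). Over all genes tested 10.8% were lower and 7.55% higher. Hoxa5 was at 110, 103 and 102 FPKM without CHIR and 15.8, 16.6 and 16.3 FPKM with it (-2.62, SE 0.12), and Hoxa4 and Hoxb5 fell (-2.74 and -2.53). Hoxc5 fell by 3.17, but its annotated span covers neighbouring Hoxc genes, so fragments of these may count in it. Hoxd4 was among those not called. Hoxa11 and Hoxd9 were the members that rose, Hoxa11 from 0.0715 ± 0.0772 to 3.01 ± 0.604 FPKM. Hoxb13, at the far end, fell from 5.62 ± 0.281 to 1.10 ± 0.190 FPKM.

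**Figure D4:**
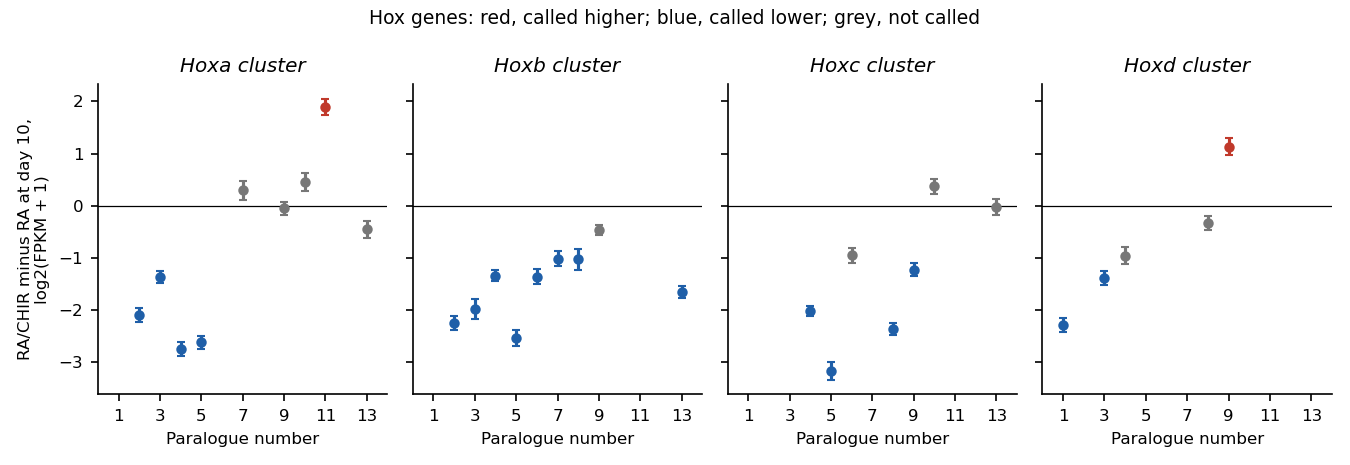
Points are the Hox genes shown from those tested at day 10, by paralogue number on the x axis and by cluster, and the y axis is the difference RA/CHIR-10d minus RA-10d on the log2(FPKM + 1) scale with its SE. Blue genes were called lower, red higher and grey neither; Hoxa11 and Hoxd9 are the red points.

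Of 15 genes of the insulin-like growth factor (IGF) axis, 8 fell and 2 rose (median -1.29). The carriers fell most: Igfbp3 was at 321, 338 and 328 FPKM without CHIR and 8.08, 8.32 and 7.75 FPKM with it, Igfbp5 fell from 139 ± 5.66 to 2.98 ± 0.262 FPKM, and Igfbp6 from 96.3 ± 10.2 to 1.83 ± 1.14 FPKM. Of the ligands Igf2 fell while Igf1 rose, and the protease Htra1, which cleaves such carriers, rose from 95.8 ± 2.35 to 380 ± 13.5 FPKM. The receptor Igf1r fell by 1.29. In the hedgehog pathway 6 of 13 fell and 1 rose (median -0.86). The ligand Ihh rose, while the reporters of pathway activity Gli1 (17.8 ± 1.99 to 2.46 ± 0.190 FPKM) and Ptch1 (15.5 ± 0.563 to 5.83 ± 0.336 FPKM) and the coreceptor Gas1 (154 ± 6.42 to 11.7 ± 0.397 FPKM) fell.

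In the fibroblast growth factor (FGF) list 8 of 21 fell and 4 rose (median -0.56). The feedback genes Spry1 and Dusp6 and the effector Etv1 fell (-2.52, -2.14 and -2.75), and Fgfr4, an endodermal receptor, rose from 1.29 ± 0.0913 to 18.2 ± 1.08 FPKM. Bone morphogenetic protein and TGF-beta genes gave 12 lower and 4 higher of 35 (median -0.54). The BMP responders Id1, Id2 and Id3 all fell (Id2 from 120 ± 6.47 to 17.8 ± 1.58 FPKM), while the ligand Bmp2 rose from 2.47 ± 0.342 to 10.6 ± 1.08 FPKM. Of 16 PDGF, VEGF and KIT family genes, 3 rose and 5 fell. The VEGF receptors separated: Kdr, which mesodermal progenitors also express, fell from 16.0, 17.1 and 16.8 FPKM to 0.127, 0.079 and 0.178 FPKM, and Flt1 rose from 3.99 ± 0.123 to 22.1 ± 1.31 FPKM. Notch genes gave 6 lower and 1 higher of 11 (median -1.24), with lower levels of Notch3 and the glycosyltransferase Lfng (-1.73 and -2.50). Semaphorin, plexin and ephrin genes gave 14 lower and 1 higher of 31 (median -0.88), with Sema3c falling from 38.6 ± 0.545 to 5.50 ± 0.0576 FPKM.

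Of 11 chemokine genes, 1 rose (2 without RA-10d replicate 1) and 3 fell. Cxcl14 went from 0.935 ± 0.130 to 43.5 ± 2.04 FPKM, and Cxcl10, an interferon-induced chemokine, from 26.5 ± 1.97 to 0.419 ± 0.295 FPKM. Interferon and antigen presentation genes gave 6 higher and 3 lower of 23 (median 0.22). The class I chain H2-K1 rose from 23.4 ± 0.717 to 64.4 ± 0.458 FPKM and its partner B2m from 293 ± 8.15 to 629 ± 12.6 FPKM, while Irf1 fell from 25.9 ± 1.25 to 6.89 ± 0.274 FPKM. Of 26 imprinted genes, 12 fell and 1 rose (median -0.96). Mest fell from 141 ± 1.20 to 10.9 ± 1.34 FPKM, Peg3 from 166 ± 1.88 to 15.8 ± 0.290 FPKM and the cell cycle inhibitor Cdkn1c from 209 ± 9.86 to 17.4 ± 1.16 FPKM. Igf2 and its neighbour H19, expressed from opposite parental copies, fell together. Meg3 and Peg10 were not called (-0.90 and 0.61).

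Genes of the integrated stress response, which acts through the factor Atf4, and of the unfolded protein response were read as 1 list. They rose in 14 of 30 cases and 1 fell (median 0.90). Asns, asparagine synthetase, was at 17.6, 18.1 and 16.7 FPKM without CHIR and 203, 209 and 207 FPKM with it (3.49, SE 0.09, adjusted p = 5.47e-22). Chac1, which degrades glutathione, was at 0.192, 0.714 and 0.694 FPKM without CHIR and 11.3, 12.2 and 11.3 FPKM with it. The amino acid transporter Slc7a5 rose from 5.44 ± 0.679 to 39.1 ± 1.23 FPKM, the pseudokinase Trib3 from 2.49 ± 0.805 to 20.02 ± 1.45 FPKM, and Atf3 from 4.94 ± 0.260 to 19.98 ± 1.74 FPKM. Xbp1, a factor of the unfolded protein response, was also among the 14. The chaperone Hspa5, the classical readout of protein misfolding in the endoplasmic reticulum, was at 272 ± 7.56 and 336 ± 8.23 FPKM (0.30, not called). Atf4 itself was at 89.6 ± 4.14 and 158 ± 1.37 FPKM, 0.82 higher and not called. The member that fell was Cebpb. What drove these changes was not tested.

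The 250 bases before the starts of Asns (chr6:7693210-7693459, minus strand) and Chac1 (chr2:119350992-119351241, plus strand) are shown because each holds TGATGNAA, the composite element that ATF4 and C/EBP factors are known to bind, in capitals.
Asns: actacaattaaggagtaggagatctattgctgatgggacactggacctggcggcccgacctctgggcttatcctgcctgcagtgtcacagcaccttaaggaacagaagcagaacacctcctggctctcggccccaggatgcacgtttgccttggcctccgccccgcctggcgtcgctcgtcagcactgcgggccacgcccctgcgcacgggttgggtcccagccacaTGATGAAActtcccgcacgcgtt
Chac1: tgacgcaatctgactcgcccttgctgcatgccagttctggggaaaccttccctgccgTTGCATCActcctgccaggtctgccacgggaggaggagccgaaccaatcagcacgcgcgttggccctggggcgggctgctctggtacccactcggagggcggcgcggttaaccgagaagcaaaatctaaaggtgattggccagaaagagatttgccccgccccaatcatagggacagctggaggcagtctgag
In Chac1 the match lies on the opposite strand. TGATGNAA was found, on either strand, in 5 of the 28 list members with a promoter window, namely Asns, Atf3, Chac1, Herpud1 and Vldlr, and in 3.45% of 32851 windows. Of these 5, Asns, Atf3 and Chac1 rose and Herpud1 and Vldlr were not called.

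Cholesterol synthesis genes fell in 6 of 23 cases and none rose (median -0.68; 1 rose without RA-10d replicate 1 or RA/CHIR-10d replicate 1), led by Mvd (34.1 ± 2.20 to 11.9 ± 1.32 FPKM), Idi1 and Hmgcs1. Of 28 glycolysis and hypoxia genes, 5 rose and 1 fell (median 0.19): after Ndrg1 these included the prolyl hydroxylase P4ha2 (52.4 ± 1.46 to 256 ± 2.82 FPKM) and the glucose transporter Slc2a3 (50.7 ± 0.514 to 145 ± 6.81 FPKM). None of 27 respiratory chain genes was called (median 0.21), the furthest being Sdhd at 0.93. Of 34 cell cycle and replication genes, 6 fell and none rose (median -0.04). Over all genes tested 10.8% were lower. The 6 were the D and E cyclins Ccnd1, Ccnd3 and Ccne1 and the inhibitors Cdkn1c, Cdkn2a and Cdkn2b. They thus held both drivers and brakes of the first gap phase. Ccnd3 was at 222 ± 7.09 and 60.7 ± 2.08 FPKM and Cdkn2b at 99.0 ± 1.86 and 27.9 ± 2.54 FPKM. Mki67, the proliferation antigen, was at 5.37 ± 0.408 and 4.92 ± 0.0837 FPKM (adjusted p = 0.164). Calcium and epithelial transport genes gave 6 higher and none lower of 13 (median 0.89), including the sodium pump subunit Atp1b1 (75.03 ± 2.77 to 377 ± 1.92 FPKM).

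Lists of other lineages held few tested members. Runx1, a blood stem cell factor, rose from 3.02, 2.13 and 2.79 FPKM to 34.8, 36.8 and 34.1 FPKM, and Cd68, a lysosomal protein of macrophages, from 30.5 ± 1.22 to 122 ± 1.66 FPKM, with Ptprc and Gata1 at 0 throughout. Zic1, a neural plate factor, rose from 0.655 ± 0.244 to 8.74 ± 0.646 FPKM, and 4 of the 6 neural genes tested fell. Sox21 rose from 1.13 ± 0.181 to 12.6 ± 0.188 FPKM. By chromosome, 25.6% of the 461 X-linked genes tested were called, 60 higher and 58 lower, against 14.6% to 22.1% for the autosomes.

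Day 10 was set beside the other days to see which differences were old, new or transient. The same contrast called 8.34% of these genes on day 4 (3.57% higher, 4.77% lower), 12.2% on day 7 (4.59% higher, 7.56% lower) and 21.5% on day 16 (8.19% higher, 13.3% lower). Of the 1020 genes higher at day 10, 254 (24.9%) were already higher on day 4 and 523 (51.3%) on day 7. Of the 1465 lower genes, 359 (24.5%) were lower on day 4 and 845 (57.7%) on day 7. In reverse, 84.4% of the genes higher on day 7 and 82.7% of those lower were called the same way on day 10, whereas for day 4 these shares were 52.6% and 55.7%. After withdrawal, 518 of the higher genes (50.8%) and 996 of the lower genes (68.0%) were called the same way on day 16. Each day has its own control libraries. The genes were filtered on the day 10 libraries alone, so genes that differed on another day but were under the filter at day 10 are not counted. The larger share on day 10 than on days 4 and 7 may come in part from this filter.

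The change of the CHIR effect from day 7 to day 10 was tested directly as an interaction. It was called for 474 genes (3.51%), 248 in the upward (1.84%) and 226 in the downward direction (1.67%). Tdgf1, or Cripto, a Nodal coreceptor, had the largest upward change among named protein-coding genes: the difference went from -0.86 on day 7 to 2.63 on day 10 (interaction 3.49, SE 0.23, adjusted p = 1.22e-11). A processed copy, Tdgf1-ps1, moved alike and may share fragments with it. Chac1 changed by 2.67, Spp1 by 2.62, Lama1 by 2.37 and Trib3 by 2.19, each from a smaller to a larger positive difference. Pga5, a pepsinogen, changed by 2.73, from -3.09 to -0.36, so a lowering by CHIR shrank. Gstm1, a glutathione transferase, changed by 2.63, from -3.93 to -1.31, and was still lower with CHIR on day 10. Of the 30 stress response genes, 9 changed upward. Downward changes were led, among the genes named here, by Agtr2, which went from 2.68 to 21.7 FPKM without CHIR between days 7 and 10 and was at 0.045 and 0.0266 FPKM with CHIR on these days (interaction -2.66). Gas6, a ligand of TAM receptors, went from 46.1 to 232 FPKM without CHIR and from 70.3 to 73.2 FPKM with it (interaction -2.25, SE 0.08).

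Among the 226 genes with a downward change, the RA arm moved further than the RA/CHIR arm between days 7 and 10 in 175 (77.4%), with median shifts of 0.98 and -0.30. Among the 248 with an upward change the split was 128 (51.6%) to 120, with median shifts of -0.72 and 0.61, and over all genes tested the RA arm moved further in 53.8%. Against day 4, 2169 genes changed their difference (16.1%; 7.21% upward and 8.84% downward), and of the 1195 that moved down the RA arm moved further in 900 (75.3%). Lama1 shows the upward form: it was at 384, 84.9 and then 16.5 FPKM on days 4, 7 and 10 without CHIR, while with CHIR it was at 136, 153 and 160 FPKM. The difference for Lama1, -1.49 on day 4, had thus turned to 3.21 by day 10 with little movement in the RA/CHIR arm. Lamb1, Lamc1, Col4a1 and Col4a2 were likewise lower with CHIR on day 4 (-1.35, -1.54, -1.03 and -1.10) and higher on day 10.

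For Wnt feedback genes the arms came closer over these days. Axin2 was at 2.52, 8.74 and then 18.3 FPKM on days 4, 7 and 10 without CHIR and at 81.4, 51.5 and then 47.9 FPKM with it, so the difference shrank from 4.55 to 1.35 (interaction against day 4 -3.20, SE 0.20). Sp5 shrank from 4.90 to 1.10 and Notum from 6.29 to 2.77 in the same way. Nkd1 went from 4.38 to 40.8 FPKM without CHIR and from 74.6 to 105 FPKM with it. After withdrawal their differences turned negative: Axin2 was at 6.54 FPKM on day 16 in the RA arm and 1.57 FPKM in the RA/CHIR arm, and Nkd1 at 48.7 and 3.94 FPKM.

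**Figure D5:**
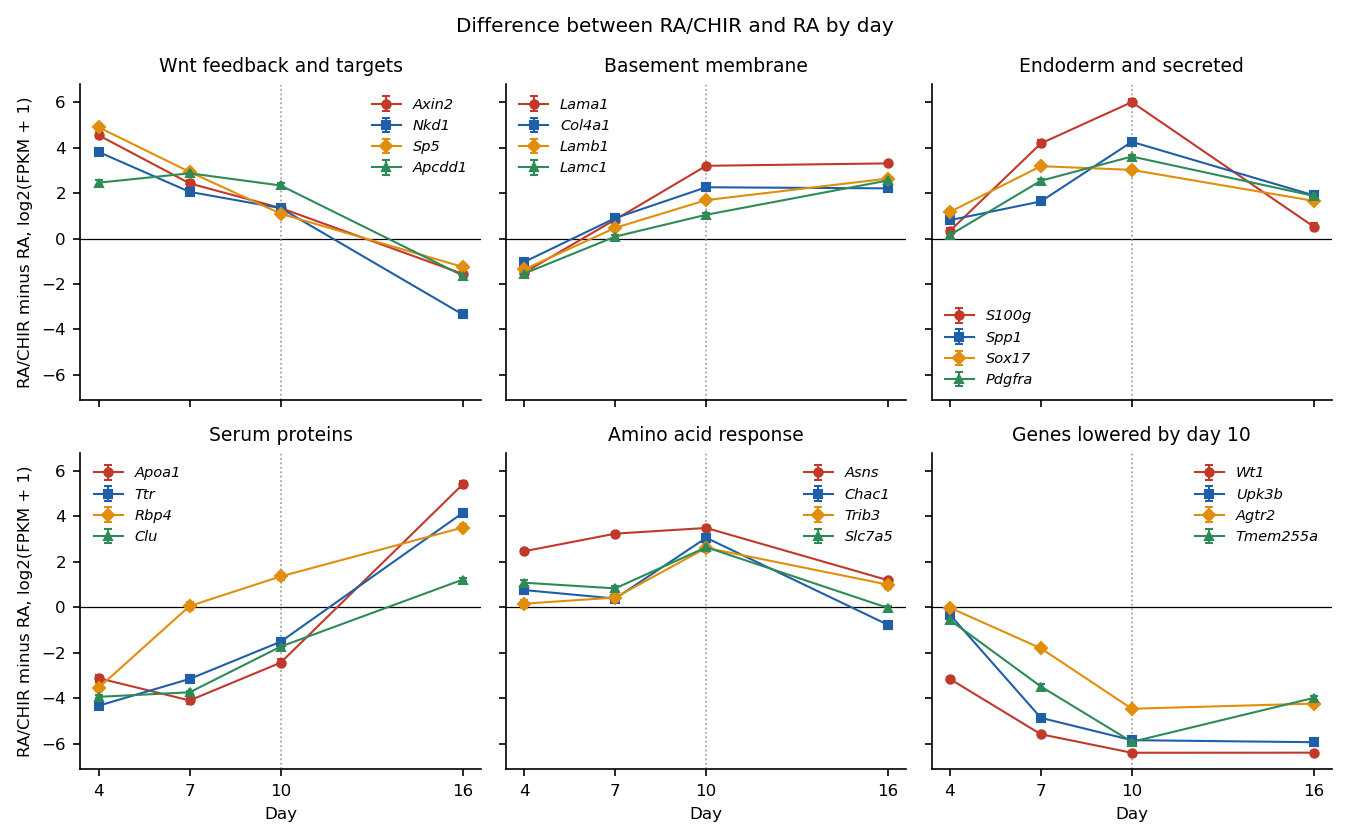
Each line is a gene, with the day on the x axis and the difference RA/CHIR minus RA on the log2(FPKM + 1) scale, with its SE, on the y axis; the dotted line marks day 10, the last day with inducers. Basement membrane genes cross from below to above 0 between days 4 and 10, Wnt feedback genes fall through 0 after day 10, and Apoa1 and Ttr are below 0 at day 10 and above it at day 16. The panel titled amino acid response holds Asns, Chac1, Trib3 and Slc7a5 of the stress response list.

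From day 10 to day 16 the difference changed for 1940 genes (14.4%; 5.46% upward and 8.9% downward). This change uses the same day 10 libraries that chose the genes, so the shares are a description. The difference shrank for 354 of the 1020 higher genes (34.7%) and for 262 of the 1465 lower genes (17.9%). For S100g the mean went from 2553 to 534 FPKM with CHIR and from 39.0 to 374 FPKM without it, so the difference of 6.01 became 0.52. Pitx1 went from 226 to 33 FPKM in the RA/CHIR arm and from 8.99 to 76.8 FPKM in the RA arm. The serum protein genes went the other way. Apoa1 was at 0.949 FPKM with CHIR on day 10 and 179 FPKM on day 16, and Ttr at 2.15 and 167 FPKM, so both passed from lower to higher than the RA arm. Gata6 and Dab2, the endoderm genes that were lower with CHIR at day 10, were higher on day 16 (1.0 and 2.03). Of the stress response genes, Chac1 went to a difference of -0.78 on day 16 and Slc7a5 to -0.03.

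The reference lines place the day 10 effect beside an established difference. XEN and SMC differed for 4138 of the tested genes (30.6%), with 1890 higher in XEN (14%) and 2248 lower (16.6%). Of the 1020 genes higher with CHIR, 320 (31.4%) were also higher in XEN than in SMC and 150 (14.7%) were lower. Of the 1465 genes lower with CHIR, 671 (45.8%) were lower in XEN and 153 (10.4%) were higher. The 320 made up 16.9% of the genes higher in XEN, and the 671 made up 29.8% of those lower in XEN. Sox17, Gata4 and Lama1 were among the shared rises, and S100g too, although XEN cells held only 41.2 FPKM of it. Spp1 was raised by CHIR but was at 0.761 FPKM in XEN and 89.3 FPKM in SMC. Cyp26a1, at 0.418 FPKM in XEN and 0.314 FPKM in SMC, was low in both lines. As a description across genes, which are not independent replicates, the RA/CHIR-10d means correlated with XEN at 0.868, with mES at 0.843 and with SMC at 0.763, and the RA-10d means at 0.822, 0.804 and 0.813 in that order.

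Set against the undifferentiated cells, the mES mean lay between the arms for 376 of the 1020 higher genes (36.9%), below both for 420 (41.2%) and above both for 224 (22.0%). For all genes tested it lay between the arms in 19.9%, below both in 42.0% and above both in 38.2%. Called genes were chosen for a gap between the arms, which by itself leaves more room between them, so the between shares are a description. For Esrrb and Pou5f1 mES was above both arms, while S100g (3.77 FPKM in mES) and Pitx1 (0.205 FPKM) were higher than mES in both arms. Of the 1465 lower genes, mES was below both arms for 665 (45.4%), between them for 596 (40.7%) and above both for 204 (13.9%). Wt1, at 0.152 FPKM in mES, was far higher in the RA arm and at a mean of 0.453 FPKM with CHIR.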

How the data were processed

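The authors deposited one table of FPKM for 33 libraries. Per the submitters' processing notes, the tools named are Trimmomatic 0.33, HISAT2 2.0.4, Cufflinks and Cuffdiff, with GRCm38; strand and the handling of shared reads are not given in the sources used here. Of 52631 genes, 52398 matched GENCODE M21, whose names and coordinates were used, and 13 symbols were restored from dates. Promoters came from RefSeq.

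Values were taken as log2(FPKM + 1). limma 3.58.1 in R 4.3.3 fitted 11 group means with a trended prior to the 13511 genes tested, with Benjamini-Hochberg adjustment over all of them. The fit was tested on simulated data. Alternatives covered scaling, pseudocount, filter, prior, samples fitted, the replicate block and each library left out. Named genes were the 25 called genes with the largest difference each way, where the higher mean reached 5 FPKM and libraries of the arms were apart, the 10 with the largest FPKM difference, up to 5 called members of a list each way, the 10 with the largest change from day 7, and cell type markers. Genes named outside it, mostly uncalled members and motif holders, were chosen after their values were seen. The members and lists were chosen with earlier results of these data known. Some list members are not reported here by name.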

Additional observations from a re-analysis of the deposited data

Results flagged for a closer look

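Some genes drew attention because the CHIR effect itself differed between days, by limma's test of the difference with adjusted p under 0.05. Only genes that the text describes were looked at, so the lists are not complete. The values are the change of the RA/CHIR minus RA difference on the log2(FPKM + 1) scale. Groups of 3 libraries are too small for the check of a single library far from the others.

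From day 7 to day 10 the genes described in the text with an upward change of at least 2 in size, or opposite calls, were Chac1 (2.67), Clu (2.01), Gstm1 (2.63), Lama1 (2.37), Pga5 (2.73), Spp1 (2.62), Tdgf1 (3.49), Tdgf1-ps1 (2.47) and Trib3 (2.19). Those with a downward change were Agtr2 (-2.66), Ecel1 (-2.18), Gas6 (-2.25), Igfbp6 (-2.05), Tmem255a (-2.44) and Tnfsf13b (-2.40). For Clu, Gstm1 and Pga5 the upward change left the difference negative on day 10.

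The CHIR effect was called in opposite directions on day 4 and day 10 for Ccnd1 (-3.78), Col4a1 (3.29), Col4a2 (3.15), Idi1 (-2.38), Kit (2.42), Lama1 (4.70), Lamb1 (3.05), Lamc1 (2.59), Lgals1 (-3.16), Lrp2 (2.62), Rbp4 (4.90), Sparc (2.33), Tdgf1 (5.27), Tdgf1-ps1 (4.31) and Tdh (4.88), where a positive value means that the effect moved upward.

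Calls were opposite on day 10 and day 16, after the inducers were withdrawn, for Apcdd1 (-3.97), Apoa1 (7.84), Axin2 (-2.90), Clu (2.95), Col8a1 (-3.79), Cyp26b1 (2.84), Dab2 (3.09), Gata6 (2.07), Gbx2 (-4.06), Gstm1 (2.62), Nkd1 (-4.68), Notum (-4.77), Pitx1 (-5.72), Sfrp4 (-2.29), Sp5 (-2.34), Tcf7 (-2.72) and Ttr (5.67).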

How the results depend on the processing

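Depth in fragments is unknown, so low FPKM values carry an error that could not be stated. All 5 counts of called genes kept within 1.5 times under both other scalings, a pseudocount of 0.1, a filter that kept every gene above 0 in 1 of the 6 libraries, a constant prior and a fit of only the groups compared. With a mean of at least 5 FPKM required, 1503 genes were called at day 10, 300 for the change from day 7, 1382 from day 4 and 1143 to day 16, with fewer genes tested. With the adjusted p alone, without a minimum size, these became 8514, 2498, 6250 and 6309, and 9612 for XEN against SMC. Quantile normalization called 2685 genes at day 10, of which 47.4% were higher against 41.0% as deposited.

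Leaving out each library gave 2500 to 2529 genes at day 10, 459 to 489 for the change from day 7, 2147 to 2196 from day 4, 1896 to 2018 to day 16, and 4128 to 4167 for XEN against SMC. Same-numbered libraries of the arms did not deviate together (r of -0.0401, 0.0308 and 0.0483), and pairs with different numbers gave -0.0789 to 0.0418. With 3 libraries in an arm, which may be technical, this cannot tell whether the numbers mark a shared culture or batch. With the replicate block 2486, 472, 2166, 1942 and 4139 genes were called in the same order.

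Of the 241 named genes, 14 changed call or direction under any of 12 alternatives. The sign turned with quantile normalization for Foxa1 (0.0579) and Mki67 (0.0219). Leaving out 1 library gave -0.0918 to 0.0163 for Foxa1 and -0.0978 to 0.1509 for Sox2, and the sign turned for Foxa1 without RA/CHIR-10d replicate 2 and for Sox2 without 4 of the 6 libraries. None of these 3 was called. With quantile normalization Apc2, Fth1, Lamc1 and Sparc were no longer called (-0.62, 0.62, 0.93 and 0.90), and Meg3 was (-1.16). The cause was not tested.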
